A study of Mus musculus with 8 samples.

Results

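Integrins and laminins are the receptors and one of the main ligands by which cells hold on to the matrix around them. The 37 genes described here are all integrin and laminin chains in the deposited feature list of 56749, taken by their symbols, with no threshold on their values. They comprise 26 integrin chains, of which 18 are alpha and 8 are beta chains, and 11 laminin chains, of which 5 are alpha, 3 are beta and 3 are gamma chains. RNA was counted in single nuclei sorted from frozen visceral white adipose tissue of 8 mice, 2 in each of 4 groups. One group (mCherry SD) had the genotype p21+/mCherry and ate a standard diet. Mice of the remaining 3 groups were fed a high-fat diet and had the genotypes p21+/mCherry (mCherry HFD), p21+/mCherry-Tert (Tert HFD) and p21+/mCherry-TertCi (TertCi HFD). Every group, the controls included, thus carried 1 altered p21 allele, and no wild-type mice and no Tert or TertCi mice on the standard diet were among these groups. By the series' design text, Tert and TertCi were driven by the p21 promoter. The sources used here do not say how TertCi differs from Tert. The same text names the stromal vascular fraction and p21+/- mice, whereas the labels name whole tissue and p21+/mCherry, and the labels were followed. Ages and sexes were not given in the sources used here.

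An integrin is a pair of 1 alpha and 1 beta chain that spans the membrane and links the matrix, or a partner on another cell, to the actin cytoskeleton. A laminin is a trimer of an alpha, a beta and a gamma chain and forms the sheet of the basement membrane. In adipose tissue each adipocyte and each vessel is wrapped in such a membrane, while leukocytes use integrins of their own to enter the tissue, to bind adhesion molecules and to take up debris.

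The 8 libraries held between 23378488 and 139749876 UMIs (unique molecular identifiers, each counting 1 captured RNA molecule). Filtering left 30209 nuclei, and the median nucleus held between 1682 UMIs in Tert HFD rep136 and 7134 in Tert HFD rep134. Clusters were named from marker genes as adipocyte-like (5042 nuclei in all), progenitor-like (5005), macrophage-like (8619), mesothelial-like (1661), endothelial-like (864) and mural-like (436), and 293 epithelial-like nuclei from 2 mice were not tested as a class. The adipocyte markers summed to between 3906 and 9864 CPM in adipocyte-like nuclei and to between 90.1 and 585 CPM in progenitor-like nuclei, where CPM is the UMIs of a gene per 1000000 UMIs of that class in that mouse. Clusters that carried markers of more than 1 lineage were left out of these classes. Like the epithelial-like nuclei, their nuclei did enter the sums over all called nuclei. The share of these mixed clusters was 52.4% ± 2.81 (SD, n = 2) for mCherry SD, 19.6% ± 1.47 for mCherry HFD, 22.0% ± 6.70 for Tert HFD and 26.5% ± 8.87 for TertCi HFD. Macrophage-like nuclei were 4.62% ± 1.20, 48.9% ± 1.35, 27.6% ± 1.40 and 17.5% ± 3.32 of all nuclei in the same order of groups. Adipocyte-like nuclei numbered 115 and 30 in the mCherry HFD mice, against 457 to 1689 in the other 6 mice. RNA that floats free in the suspension enters every droplet, so each gene's level in barcodes with under 100 UMIs (near-empty barcodes) is given where it bears on a result. Pairs of libraries shared between 0 and 16 nucleus barcodes, 127 in all, against 90.0 expected if each library drew its barcodes at random from all those listed. CPM values are compared between classes, groups and mice for 1 gene at a time and never between genes.

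Among the alpha chains that bind collagen, Itga11 was highest in progenitor-like nuclei, at 139.8 ± 27.5 CPM, and lowest in adipocyte-like nuclei, at 3.48 CPM. Class levels here carry the SD over 8 mice. Those of endothelial-like nuclei rest on 7 mice, since mCherry SD rep144 had 9 such nuclei. The next class for Itga11 was mesothelial-like, at 29.1 ± 15.3 CPM, and the ranges over mice did not overlap. Itga1 was highest in mural-like nuclei at 492 ± 117 CPM and next in endothelial-like nuclei at 300.4 ± 101.5 CPM, where the ranges did overlap. Of the alpha chains that bind laminin, Itga6 reached 273 ± 52.0 CPM in endothelial-like nuclei and 155.8 ± 32.9 CPM in adipocyte-like nuclei, without overlap. Itga3 was a mesothelial-like chain, at 44.7 ± 13.4 CPM against 11.5 ± 5.00 CPM in endothelial-like nuclei. Itga7, the laminin receptor of muscle, was highest in adipocyte-like nuclei at 149.9 ± 75.8 CPM, with mural-like nuclei next at 91.7 ± 41.8 CPM, and these ranges overlapped.

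Itga8, a receptor for the RGD motif that is known from smooth muscle and mesangial cells, showed the widest gap between classes of all 37 members. Its level in mural-like nuclei was 117 ± 42.8 CPM, and in progenitor-like nuclei, the next class, it was 3.53 ± 2.01 CPM, a ratio of 33.2. Itgb4, the partner of alpha6 in hemidesmosomes, reached 22.7 ± 10.4 CPM in endothelial-like nuclei against 5.95 ± 3.50 CPM in mesothelial-like nuclei. Itgb8, which with the alpha-v chain binds latent TGF-beta, was highest in progenitor-like nuclei, at 57.6 ± 14.6 CPM against 31.7 ± 6.22 CPM in mesothelial-like nuclei. The common partner Itgb1 went from 127.5 CPM in adipocyte-like to 362 CPM in mural-like nuclei.

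Of the laminin chains, Lamc3 was highest in mural-like nuclei, at 47.2 ± 36.1 CPM, and Lamb2 in mesothelial-like nuclei, at 19.1 ± 8.64 CPM against 22.6 CPM in near-empty barcodes, both overlapping the next class. Lama2, the alpha chain of the laminins around muscle and stromal cells, stood at 2529 ± 638 CPM in progenitor-like nuclei, 878 ± 311 CPM in mural-like nuclei and 42.2 CPM in adipocyte-like nuclei. Lamc1, the gamma chain shared by most laminins, was also highest in progenitor-like nuclei, at 957 ± 119 CPM against 432 ± 63.5 CPM in adipocyte-like nuclei. For Lama2 and Lamc1 the highest class did not overlap the next over mice. When each nucleus was classed on its own, 30 of the 37 members kept their highest class (Lamb2 did not, at 17.1 CPM in endothelial-like and 16.8 CPM in mesothelial-like nuclei), Itga8, Itga11 and Lamc1 still did not overlap the next class, and Lama2 (2020 against 1071 CPM), Itga6, Itga3, Itgb4 and Itgb8 did. Lama4, the alpha chain of vessel and adipocyte basement membranes, was highest in adipocyte-like nuclei at 872 ± 311 CPM, with mesothelial-like nuclei next at 539.6 ± 162 CPM and overlapping. Lama5 and Lama3 were highest in endothelial-like nuclei, at 41.9 ± 19.8 and 71.0 ± 33.7 CPM, and both overlapped the next class.

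The leukocyte chains Itgam and Itgb2, which pair as complement receptor CR3, were highest in macrophage-like nuclei at 49.1 ± 8.35 and 66.8 ± 21.7 CPM. Itga4, which binds VCAM1 and fibronectin, was at 299 ± 48.4 CPM in macrophage-like and 174 ± 38.1 CPM in endothelial-like nuclei. For all 3 of these chains the ranges of the first and second class overlapped. With each nucleus classed on its own, Itga4 (266.4 against 107.3 CPM) and Itgam (46.1 against 18.8 CPM) did not overlap the next class, and Itgb2 did. Endothelial-like nuclei also carried macrophage markers, which summed to between 876 and 2124 CPM there and to between 2266 and 4202 CPM in macrophage-like nuclei. Macrophage markers in endothelial-like nuclei thus have to be read beside every leukocyte chain in that class. The part of this RNA in those chains was not tested.

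**Figure D1:**
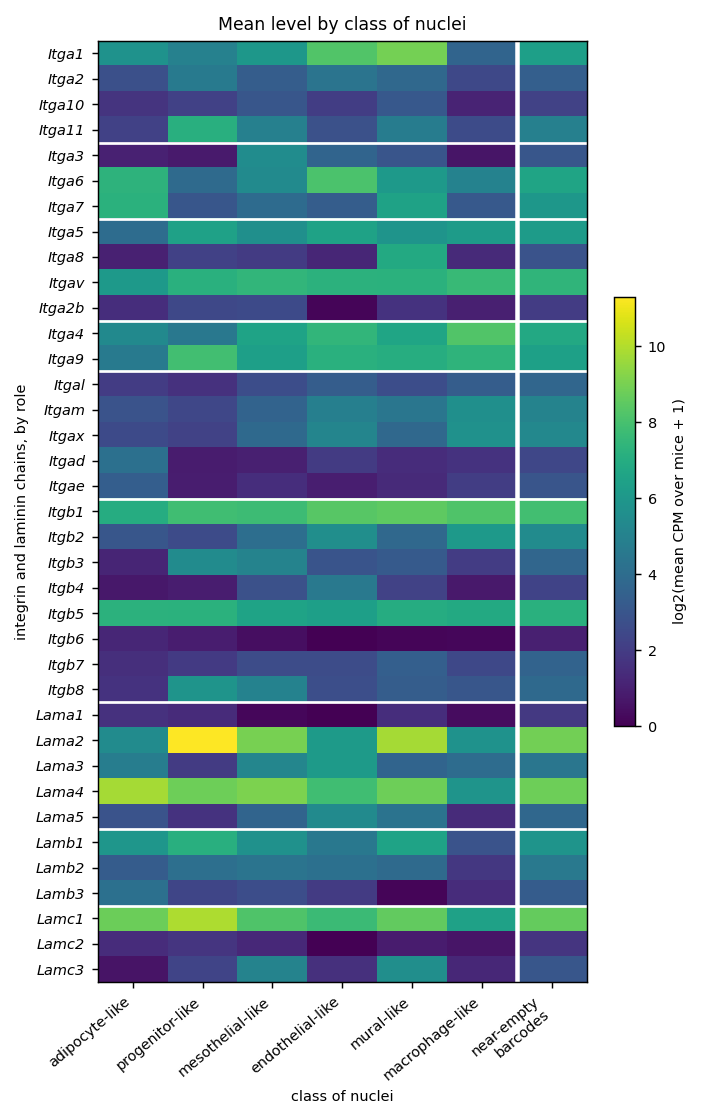
Mean level of each integrin and laminin chain (rows, in order of role) in 6 classes of nuclei and in near-empty barcodes (columns). Colour is log2 of the mean CPM over mice plus 1; Itga8 stands out in mural-like nuclei alone, at 117 CPM against 3.53 CPM in the next class.

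In macrophage-like nuclei, the high-fat diet went with higher Itgax, Itgav, Itgb5 and Itga5, and in both Tert genotypes Itgax, Itgav and Itgb5 were lower again. Of 37 members, 26 passed the filter on low counts in this class, and 9 of them were called between mCherry HFD and mCherry SD (adjusted p under 0.05, edgeR quasi-likelihood test with Benjamini-Hochberg adjustment over all genes tested), against a background of 21.3% of all genes called (11.7% higher, 9.62% lower). Of the 9, 4 were higher and 5 lower. In Tert HFD against mCherry HFD 10 members were called (4 higher, 6 lower; background 19.5%, with 7.72% higher and 11.7% lower), and in TertCi HFD against mCherry HFD 12 were called (5 higher, 7 lower; background 25.9%, with 10.6% higher and 15.2% lower). Both genotype counts include Itgad, which passed the filter through the mCherry HFD mice alone. Of the calls with diet, Tert and TertCi, 4, 3 and 4 were above near-empty barcodes in every mouse of the higher group. The macrophage-like nuclei of the groups lay mostly in different clusters. Clusters 31, 32 and 25 held 22.7%, 11.7% and 8.83% of all mCherry HFD nuclei and between 0.18 and 1.54% of those of Tert HFD or TertCi HFD, whereas cluster 20, led by F13a1, held 0.32% of mCherry HFD, 12.3% of Tert HFD, 10.1% of TertCi HFD and 3.50% of mCherry SD nuclei. The part of these clusters in the results was not tested. Leaving out single mice gave 4 to 13 members called with diet (4 without mCherry SD rep146, 5 without mCherry HFD rep128), 1 to 9 with Tert (1 without mCherry HFD rep128, 5 without Tert HFD rep134) and 1 to 14 with TertCi (1 without TertCi HFD rep138, 2 without mCherry HFD rep128, 7 without TertCi HFD rep140). The median log2 fold change of the 26 members was -0.27, 0.05 and -0.04 in these contrasts, against 0.11, -0.04 and -0.08 over all genes. The diet contrast and both genotype contrasts share the mCherry HFD mice, so a value that is high or low there pushes them in opposite directions. The labels do not say whether the 2 mice of a group were littermates or shared a cage, and p-values measure the spread between these mice only.

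Itgax, the CD11c chain of complement receptor CR4 and a marker of inflammatory adipose macrophages, was at 6.07 and 5.10 CPM in macrophage-like nuclei of the mCherry SD mice and at 119.7 and 83.6 CPM in the mCherry HFD mice. It was at 54.1 and 51.4 CPM in Tert HFD and at 45.3 and 50.3 CPM in TertCi HFD. No group overlapped mCherry HFD. The log2 fold change was 4.10 ± 0.39 (SE) for diet (edgeR, adjusted p = 2.76e-05), -0.82 ± 0.20 for Tert (adjusted p = 0.0155) and -0.97 ± 0.21 for TertCi (adjusted p = 0.00571). Near-empty barcodes held Itgax at 95.6 and 108.4 CPM in mCherry HFD, above the nuclei in 1 of these 2 mice. Progenitor-like nuclei, the lowest class for Itgax, held 6.91 and 8.04 CPM in the same mice, and endothelial-like nuclei a mean of 77.4 CPM. Over mice of all groups Itgax was at 51.9 CPM in macrophage-like and 34.5 CPM in endothelial-like nuclei, the next class, and the ranges overlapped. Itgax in the genotype contrasts lost its call without mCherry HFD rep128, and in 1 of them each without Tert HFD rep134 and without TertCi HFD rep138.

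Itgav, the alpha-v chain that takes up apoptotic cells and binds vitronectin and osteopontin, was at 54.6 and 81.6 CPM in mCherry SD and at 377 and 390.0 CPM in mCherry HFD macrophage-like nuclei. Tert HFD mice had 174 and 181 CPM, and TertCi HFD mice had 150.9 and 172 CPM. All mCherry HFD values lay above all others. The log2 fold changes were 2.29 ± 0.21 for diet, -0.96 ± 0.17 for Tert and -1.11 ± 0.17 for TertCi (edgeR, adjusted p = 1.82e-05, 0.00248 and 0.000822), and each kept its call in all 14 alternatives run. The alternative that named each cluster by its best-scoring class held the same macrophage-like nuclei as the main test, so it could not differ. This applies to every count of 14 alternatives in this class. In mCherry HFD these levels exceeded those of near-empty barcodes, which were 299 and 305 CPM. Itgb5, the partner of alpha-v at vitronectin, was at 36.4 and 67.6 CPM in mCherry SD, at 200.6 and 218 CPM in mCherry HFD, at 85.5 and 122.9 CPM in Tert HFD and at 107.9 and 97.2 CPM in TertCi HFD. Its fold changes were 1.76 ± 0.28, -0.87 ± 0.23 and -0.87 ± 0.23 (edgeR, adjusted p = 0.00111, 0.0198 and 0.0155). The diet call for Itgb5 held in all 14 alternatives, while its genotype calls were lost on leaving out either mCherry HFD mouse, and with Tert HFD rep134 or with either TertCi HFD mouse left out in the contrast concerned. Itga5, the fibronectin receptor chain, was at 42.5 and 45.9 CPM in mCherry SD and at 131.7 and 109.8 CPM in mCherry HFD, a log2 difference of 1.30 ± 0.30 (edgeR, adjusted p = 0.00948). It was at 51.0 and 59.7 CPM in TertCi HFD, lower by a log2 change of -1.004 ± 0.24 (edgeR, adjusted p = 0.0103), and at 58.2 and 88.9 CPM in Tert HFD, where the test was not passed. Near-empty barcodes held Itga5 at 128.4 and 158.6 CPM in mCherry HFD, which is near or above the macrophage-like level. The diet call of Itga5 was lost without either mCherry SD mouse, and its TertCi call without mCherry HFD rep128 or TertCi HFD rep138.

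**Figure D2:**
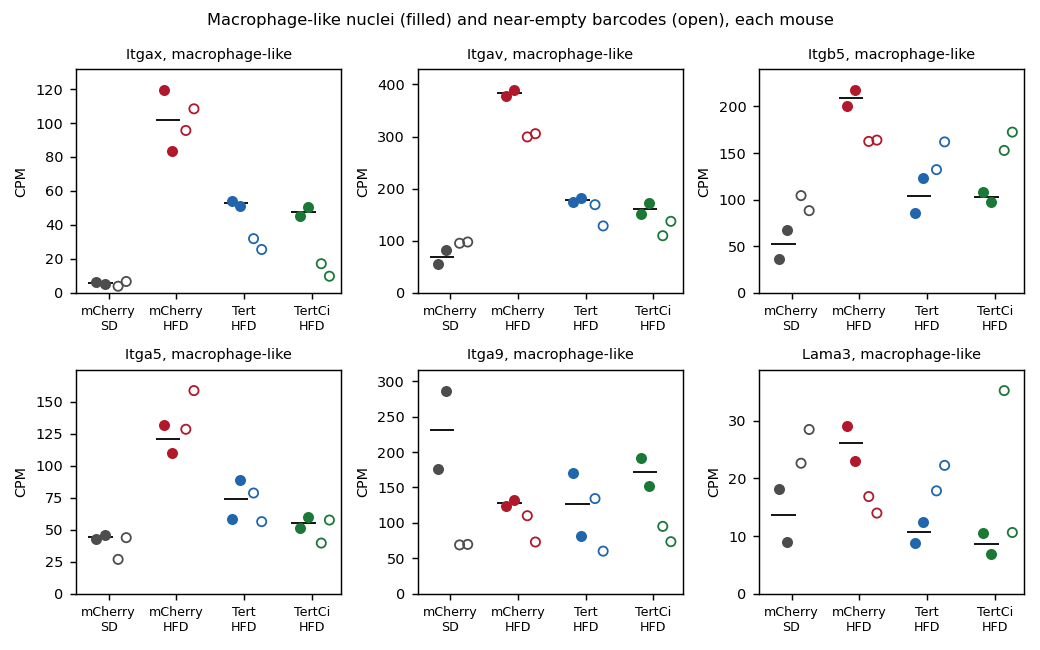
CPM of 6 chains in macrophage-like nuclei (filled points, 1 per mouse; bar, group mean) and in near-empty barcodes of the same mice (open points), by group. Itgav in mCherry HFD lies at 377 and 390.0 CPM, above the other 6 mice and above near-empty barcodes.

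The 250 bases before the RefSeq start of the 4 chains that rose with diet in macrophage-like nuclei are printed because the data bear on these genes together (mouse build GRCm38.p6, each read 5′ to 3′ on the strand of its gene). The authors' notes name another build, so these coordinates belong to the reference alone. Capitals mark the AP-1 letters TGANTCA and the PU.1 core GAGGAA on either strand, and no such matches overlap each other.
Itgax, chr7:128129300-128129549, plus strand: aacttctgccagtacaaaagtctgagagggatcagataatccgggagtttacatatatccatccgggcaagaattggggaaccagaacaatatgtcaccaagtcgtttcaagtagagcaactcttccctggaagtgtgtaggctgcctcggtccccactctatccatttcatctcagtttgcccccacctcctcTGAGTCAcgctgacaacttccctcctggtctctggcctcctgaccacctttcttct
Itgav, chr2:83724147-83724396, plus strand: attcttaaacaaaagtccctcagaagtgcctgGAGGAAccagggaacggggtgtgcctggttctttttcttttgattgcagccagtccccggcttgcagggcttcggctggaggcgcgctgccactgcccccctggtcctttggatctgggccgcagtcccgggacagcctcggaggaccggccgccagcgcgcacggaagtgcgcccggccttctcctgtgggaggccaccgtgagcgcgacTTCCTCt
Itgb5, chr16:33829415-33829664, plus strand: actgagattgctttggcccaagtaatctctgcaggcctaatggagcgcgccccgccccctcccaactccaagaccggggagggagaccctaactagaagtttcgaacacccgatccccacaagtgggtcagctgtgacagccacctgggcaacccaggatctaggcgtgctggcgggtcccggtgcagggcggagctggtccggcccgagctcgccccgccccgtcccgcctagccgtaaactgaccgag
Itga5, chr15:103366792-103367041, minus strand: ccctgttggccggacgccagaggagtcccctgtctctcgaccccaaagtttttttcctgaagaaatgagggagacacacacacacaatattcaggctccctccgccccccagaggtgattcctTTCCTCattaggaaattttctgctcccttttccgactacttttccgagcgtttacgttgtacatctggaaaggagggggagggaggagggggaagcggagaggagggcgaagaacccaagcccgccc
AP-1 letters were found in the Itgax window, and 6.75% of 32851 promoter windows of the same length held them. The PU.1 core was found in the Itgav and Itga5 windows and in 23.2% of all windows. The E-box CACGTG was in none of the 4 windows and in 6.02% of all, and the GC box GGGCGG was in those of Itgb5 and Itga5 and in 32.7% of all. A match describes letters only. Of the 37 members, 23 had a promoter entry in the reference table.

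Lower with diet in macrophage-like nuclei were Itga9, Itga4, Itgal, Lama4 and Itga7. Itga9, which binds tenascin, osteopontin and VCAM1, fell from 176 and 287 CPM to 124 and 132 CPM, by 1.04 ± 0.26 on the log2 scale (edgeR, adjusted p = 0.0139), without overlap. Its call was lost without mCherry SD rep146 or mCherry HFD rep128. Itga4 was at 367 and 289 CPM in mCherry SD and at 247 and 261 CPM in mCherry HFD (log2 change -0.50 ± 0.16), and at 358 and 335 CPM in TertCi HFD (0.60 ± 0.15 against mCherry HFD). The TertCi call of Itga4 was lost without any 1 of the 4 mice it compares. The diet call of Itga4 was kept in 4 of 14 alternatives, and the value was 0.05 when each nucleus was classed on its own. Itgal, the LFA-1 alpha chain, stood at 15.2 and 11.5 CPM, then 4.00 and 4.93 CPM, and rose again to 11.7 and 9.72 CPM in Tert HFD, and the diet call held in 5 of 14 alternatives, with the Tert call lost without either mCherry HFD mouse or Tert HFD rep134. These levels of Itgal were at or under those of near-empty barcodes in 7 of 8 mice.

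Lama3 and Itga6 in macrophage-like nuclei were lower in both genotypes than in mCherry HFD. Lama3, the alpha chain of laminin-332, was at 29.1 and 23.1 CPM in mCherry HFD against 8.88 and 12.5 CPM in Tert HFD and 10.5 and 6.82 CPM in TertCi HFD. In mCherry SD it was at 18.2 and 8.92 CPM. The log2 fold changes were -1.25 ± 0.34 and -1.36 ± 0.35 (edgeR, adjusted p = 0.0241 and 0.014). Near-empty barcodes of mCherry HFD held 16.9 and 13.99 CPM, less than the nuclei. Itga6 was at 49.3 and 56.9 CPM in mCherry HFD and between 18.9 and 33.3 CPM in the other high-fat groups, all below near-empty barcodes. Itgad was also lower in both genotypes, at 7.19 and 3.59 CPM in mCherry HFD and between 0.69 and 1.75 CPM in the other high-fat groups, and near-empty barcodes of each of these mice held as much or more. Itgad passed the filter on low counts in this class through the mCherry HFD mice alone, where it is high. Its calls here are thus a description. Lama3 lost its Tert call without mCherry HFD rep128 or Tert HFD rep134, and its TertCi call without mCherry HFD rep128 or either TertCi HFD mouse. Itga6 lost its Tert call without any 1 of 6 mice (log2 value -0.41 without Tert HFD rep134) and its TertCi call without either mCherry HFD mouse or TertCi HFD rep138. Itgad lost its Tert call without any 1 of the 7 mice other than mCherry HFD rep128, without which it has no value here, and its TertCi call without mCherry HFD rep129 or either TertCi HFD mouse.

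Lama4 and Itga7 (lower with diet, higher with Tert and TertCi), Lama2 (higher with Tert and TertCi) and Lamc1 (higher with TertCi) were called in macrophage-like nuclei but stood far below near-empty barcodes. Lama4 was at 66.8 and 136.4 CPM in mCherry SD, at 11.8 and 22.0 CPM in mCherry HFD, at 56.3 and 43.7 CPM in Tert HFD and at 82.4 and 40.9 CPM in TertCi HFD. These were between 7.28 and 17.2% of the level in near-empty barcodes of the same mouse, where Lama4 was itself lowest in mCherry HFD (162 and 166 CPM). The share was between 5.08 and 24.0% for Itga7, between 6.21 and 17.7% for Lama2, and between 17.9 and 33.2% for Lamc1. Adipocyte markers in macrophage-like nuclei summed to between 143.6 and 630 CPM, lowest in the mCherry HFD mice (143.6 and 212 CPM), and to between 8.76 and 17.96% of their level in near-empty barcodes. Their part in these calls was not tested. Without mCherry HFD rep128 the calls of Itga7 in all 3 contrasts, of Lama2 in both genotypes, of Lamc1 with TertCi and of Lama4 with Tert were lost. Without TertCi HFD rep138 the TertCi calls of all 4 chains and the Tert call of Itga7 were lost. The diet calls of Lama4 and Itga7 were lost without mCherry SD rep146, the Tert call of Itga7 without Tert HFD rep136 and the call of Lamc1 without TertCi HFD rep140.

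Itgam, Itgb1 and Itgb2 in macrophage-like nuclei did not pass the test in any contrast. Itgb2 was at 45.5 and 52.3 CPM in mCherry SD and at 114.7 and 72.6 CPM in mCherry HFD. Itgb1 lay between 268 and 305 CPM in all 8 mice.

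Macrophage-like nuclei were also split into subclusters named from markers. The perivascular name covered 2 subclusters, 1 of 936 nuclei with 71.8% from mCherry HFD rep128 and 1 of 1850 nuclei with TertCi HFD rep138 as the largest source, at 35.5%, and their part in the results was not tested. Together they had between 73 and 675 nuclei per mouse. In these perivascular nuclei 15 members were tested and 4 were called with diet (background 14.1%), 5 with Tert (background 11.9%) and 9 with TertCi (background 19%). Of these, 1, 1 and 2 were above near-empty barcodes in every mouse of the higher group. Itgav was at 37.1 and 52.7 CPM in mCherry SD, at 155 and 148 CPM in mCherry HFD, at 67.6 and 63.1 CPM in Tert HFD and at 61.1 and 84.2 CPM in TertCi HFD. Its log2 fold changes were 1.55 ± 0.27, -1.13 ± 0.21 and -1.03 ± 0.21 (edgeR, adjusted p = 0.00109, 0.0018 and 0.00232), at levels below near-empty barcodes. Itgax was also called in these contrasts, with log2 changes of 4.56 ± 0.92, -2.25 ± 0.43 and -3.01 ± 0.49. Itgax passed the filter on low counts in perivascular nuclei through the mCherry HFD mice alone, where it is high, so these calls are a description. Its mean in mCherry HFD was 32.6 CPM, below the 102 CPM of near-empty barcodes. Itga9 fell with diet by 0.82 ± 0.20 on the log2 scale and rose with TertCi by 0.69 ± 0.19 (edgeR, adjusted p = 0.0119 and 0.0162), above near-empty barcodes in every mouse of the higher group. Itgb5 was not called there with diet, Tert or TertCi, with log2 changes of 0.68 ± 0.30, -0.76 ± 0.25 and -0.21 ± 0.24. Without mCherry HFD rep128 1 member was called with Tert and 3 with TertCi, without mCherry SD rep146 1 with diet, and without TertCi HFD rep138 4 with TertCi. The lipid-associated name covered 3 subclusters, of which 1 of 545 nuclei, 65.7% of them from mCherry HFD rep128, was led by Neil3, Knl1, Kif15 and Top2a, genes of dividing cells. In the lipid-associated nuclei 21 members were tested. Its diet contrast rested on 1 mCherry SD mouse with 11 nuclei, assumed to vary like the other groups, and 1 member, Itgav, was called there (background 1.27%), a call lost without either TertCi HFD mouse. Itgav went from 87.4 CPM in that mouse to 486 and 498 CPM in mCherry HFD, and was at 405.5 and 263.5 CPM in Tert HFD and 283.5 and 290.1 CPM in TertCi HFD. There 4 members were called with Tert (background 13.2%) and 6 with TertCi (background 14.9%), against 1 and 2 by DESeq2. Of these, 2 and 3 were above near-empty barcodes, while Lama2 and Lama4 in both contrasts and Itga1 with TertCi were below them. Itgb5 was not among these calls, at means of 210.2 CPM in mCherry HFD, 188.2 CPM in Tert HFD and 187.5 CPM in TertCi HFD. Itgax did not pass the test in lipid-associated nuclei, at 183 and 156 CPM in mCherry HFD against 132.1 and 114.4 CPM in TertCi HFD. One subcluster under the lipid-associated name, 45.1% of it from Tert HFD rep136, had Tmem267, Taco1, Mir6236, Mageb18, the ribosomal RNA gene Rn18s-rs5, Ghr and Sgcd among its leading genes. No lipid-associated marker was among its leading genes, and 4 such markers were raised. Its score, the mean log2 rise of these markers, was 1.004 where at least 1 was required, so the name is a borderline one. This subcluster held most lipid-associated nuclei of both genotypes and of mCherry SD, and few of mCherry HFD. Without it the Tert HFD mice had 57 and 16 nuclei in place of 238 and 463, and the TertCi HFD mice 35 and 15 in place of 298 and 94. The mCherry HFD mice had 1865 and 494 in place of 1865 and 503, and the mCherry SD mice 0 and 3 in place of 4 and 11. Neither mCherry SD mouse then reached the minimum of 10 nuclei, so the diet contrast, Itgav included, has no value without this subcluster. Without this subcluster, 2 members were called with Tert and 8 with TertCi. In all lipid-associated nuclei 1 member was called with Tert and 1 with TertCi without mCherry HFD rep128, 2 and 3 without mCherry HFD rep129, and with TertCi 0 without TertCi HFD rep138 and 3 without TertCi HFD rep140.

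In progenitor-like nuclei, the precursor cells of the stroma, Lama2 rose in both genotypes and Lamb1 and Itga11 rose with TertCi. Of 37 members 24 were tested. With diet 2 were called, both lower (background 11.3%, with 7.21% higher and 4.07% lower), with Tert 1 was called, higher (background 10.3%, with 2.85% higher and 7.45% lower), and with TertCi 4 were called, 3 higher and 1 lower (background 18.7%, with 6.34% higher and 12.4% lower). Without mCherry HFD rep128 none, none and 1 were called in these contrasts. Without mCherry HFD rep129 the counts were 1, 0 and 1, without mCherry SD rep144 0 were called with diet, and without TertCi HFD rep140 1 was called with TertCi. Other class rules gave higher counts. They were 6, 5 and 10 with the best-scoring class and no mixed clusters, and 6, 8 and 11 with each nucleus classed on its own. The median log2 fold change of the members was -0.08, 0.11 and 0.15 against 0.03, -0.02 and -0.04 over all genes.

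Lama2 in progenitor-like nuclei was at 2248 and 2172 CPM in mCherry SD, at 2003 and 1706 CPM in mCherry HFD, at 2580 and 2832 CPM in Tert HFD and at 2985 and 3706 CPM in TertCi HFD. Both genotypes lay above both mCherry groups in every mouse. The nuclei of this class fell into different clusters by group: cluster 11, whose leading gene was Lama2, held 10.8% of all Tert HFD nuclei, 12.0% of TertCi HFD, 4.24% of mCherry SD and 0.33% of mCherry HFD nuclei, while cluster 12, led by Col8a1 and Meg3, held 9.57% of mCherry HFD nuclei and 1.17%, 0.47% and 0.054% of Tert HFD, TertCi HFD and mCherry SD nuclei. The part of this in the class's results was not tested. Lama2 rose by 0.71 ± 0.19 on the log2 scale with Tert and by 1.06 ± 0.19 with TertCi (edgeR, adjusted p = 0.0337 and 0.00339). The TertCi call held in all 14 alternatives, and the Tert call was lost without either mCherry HFD mouse, without Tert HFD rep136 and with total counts in place of TMM. Lama2 in near-empty barcodes was also lower in mCherry HFD (344 and 275.5 CPM) than in the other groups (395 to 643 CPM).

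Lamb1, a beta chain that pairs with Lama2 and Lamc1 in laminin-211, was at 139 and 169 CPM in mCherry SD, at 122 and 106 CPM in mCherry HFD, at 131.8 and 119.9 CPM in Tert HFD and at 146.6 and 168 CPM in TertCi HFD. It fell by 0.64 ± 0.17 with diet and rose by 0.65 ± 0.16 with TertCi (edgeR, adjusted p = 0.0294 and 0.0142). The diet call was lost without any 1 of the 4 mice it compares, and the TertCi call without either mCherry HFD mouse or TertCi HFD rep140. Itga11, the collagen receptor of fibroblasts, was at 119 and 109.5 CPM in mCherry HFD and at 152 and 183 CPM in TertCi HFD, higher by 0.74 ± 0.20 (edgeR, adjusted p = 0.0223). In mCherry SD Itga11 was at 157 and 117 CPM, and its call was lost on leaving out either mCherry HFD mouse or TertCi HFD rep140. Itga5 was at 124 and 106 CPM in mCherry HFD and at 58.2 and 67.8 CPM in TertCi HFD, a log2 change of -0.69 ± 0.21 (edgeR, adjusted p = 0.0409), and in mCherry HFD it lay below near-empty barcodes. This Itga5 call was lost without any 1 of the 4 mice it compares. Itga6 was at 26.6 and 19.8 CPM in mCherry SD and 5.77 and 9.89 CPM in mCherry HFD, a log2 change of -1.90 ± 0.39 (edgeR, adjusted p = 0.0119), with every value below near-empty barcodes. That Itga6 change was -0.43 and not called at 1000 UMIs in every library. Lamc1, from 770.4 to 1073 CPM, was not called in any contrast.

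**Figure D3:**
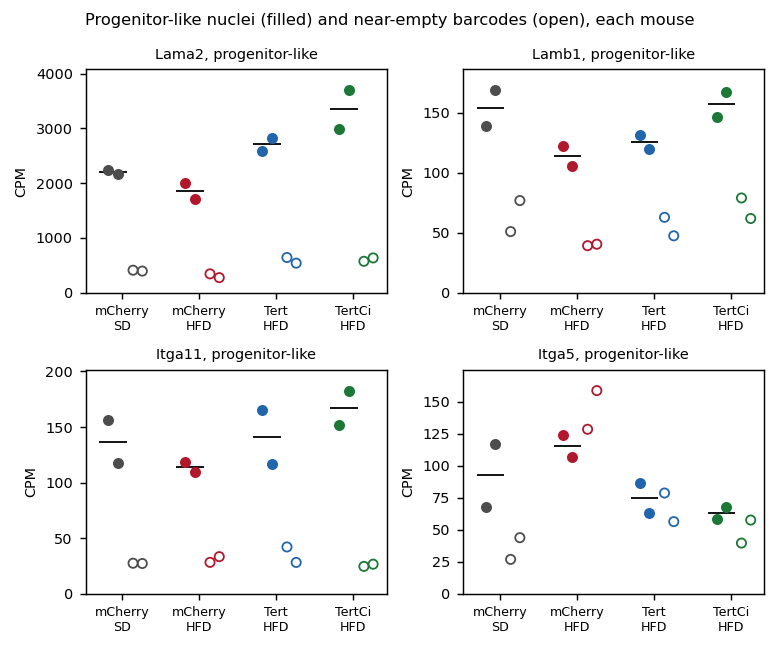
CPM of Lama2, Lamb1, Itga11 and Itga5 in progenitor-like nuclei (filled points, 1 per mouse; bar, group mean) and in near-empty barcodes (open points), by group. Lama2 is at 2580 CPM or more in every Tert HFD and TertCi HFD mouse and at 2248 CPM or less in every mCherry mouse.

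In adipocyte-like nuclei Itgad and Lamb3 rose with diet and Lama3 fell. Of 37 members 27 were tested. With diet 3 were called (2 higher, 1 lower; background 14.8%, with 9.48% higher and 5.32% lower), with Tert none by edgeR (5 at an unadjusted p under 0.05, 1 by DESeq2; background 0.779%) and with TertCi 2 (1 higher, 1 lower; background 7.03%, with 2.71% higher and 4.31% lower). The diet contrast rests on 145 mCherry HFD nuclei, and without mCherry HFD rep128 no member was called in it. The groups' adipocyte-like nuclei were spread differently over clusters. Cluster 9 held 17.2% of all mCherry SD nuclei and 0.078% of mCherry HFD nuclei, cluster 10 held 10.1% of Tert HFD nuclei, and cluster 17 held 20.2% of TertCi HFD, 5.34% of Tert HFD, 1.06% of mCherry SD and 1.09% of mCherry HFD nuclei. The part of these clusters in the results was not tested. With TertCi none was called without either mCherry HFD mouse or without TertCi HFD rep138. Other class rules gave higher counts. They were 9, 3 and 7 (diet, Tert, TertCi) with the best-scoring class and no mixed clusters. With each nucleus classed on its own they were 7 and 5 (diet, TertCi). The remaining alternatives are given further below. Lama4 ranged from 426 to 1310 CPM over 8 mice, Lamc1 from 337 to 514 CPM, Itga6 from 107.4 to 211 CPM and Itga7 from 97.4 to 327 CPM, and none of these was called.

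Itgad, the CD11d chain known from macrophages, was at 1.45 and 0.70 CPM in adipocyte-like nuclei of mCherry SD and at 64.1 and 43.3 CPM in mCherry HFD. It was at 12.3 and 4.44 CPM in Tert HFD and 1.095 and 7.65 CPM in TertCi HFD. The mCherry HFD values did not overlap any other group and exceeded those of near-empty barcodes (8.58 and 12.7 CPM) and of macrophage-like nuclei (7.19 and 3.59 CPM) in the same mice. The log2 fold change was 5.58 ± 0.92 for diet and -3.56 ± 0.76 for TertCi (edgeR, adjusted p = 0.0057 and 0.0279). Both calls were lost without mCherry HFD rep128, which gave 110 of the 119 Itgad UMIs, and the TertCi call also without mCherry HFD rep129 or TertCi HFD rep138. These 119 UMIs lay in 30 of the 145 nuclei, up to 22 in 1 nucleus. A long non-coding gene, 4931431B13Rik, lies inside the span of Itgad on the other strand and had 122 UMIs in 32 of the 145 nuclei, and 19 nuclei held both genes. Whether the counting used strand is not given in the sources used here, and whether reads of 1 gene were counted for the other was not tested. In the other groups 4931431B13Rik had fewer UMIs than Itgad in adipocyte-like nuclei, 0 against 8 in mCherry SD, 9 against 77 in Tert HFD and 2 against 43 in TertCi HFD. Macrophage markers in adipocyte-like nuclei summed to 426 and 707 CPM in mCherry HFD and to between 160 and 468 CPM in the other mice.

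Lamb3, the beta chain of laminin-332, was at 7.59 and 6.45 CPM in mCherry SD and at 48.4 and 19.2 CPM in mCherry HFD adipocyte-like nuclei, without overlap. It rose by 2.25 ± 0.43 on the log2 scale (edgeR, adjusted p = 0.0106), a call lost without mCherry HFD rep128 (log2 value 1.05) or mCherry SD rep146. Lama3 was at 27.4 and 45.5 CPM in mCherry SD, 9.91 and 9.62 CPM in mCherry HFD and 53.0 and 16.4 CPM in TertCi HFD. It fell by 2.15 ± 0.60 with diet and rose by 2.22 ± 0.59 with TertCi (edgeR, adjusted p = 0.0366 and 0.0497). Both Lama3 calls were lost without either mCherry HFD mouse, the diet call also without either mCherry SD mouse, and the TertCi call without TertCi HFD rep138 (log2 value 1.19).

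**Figure D4:**
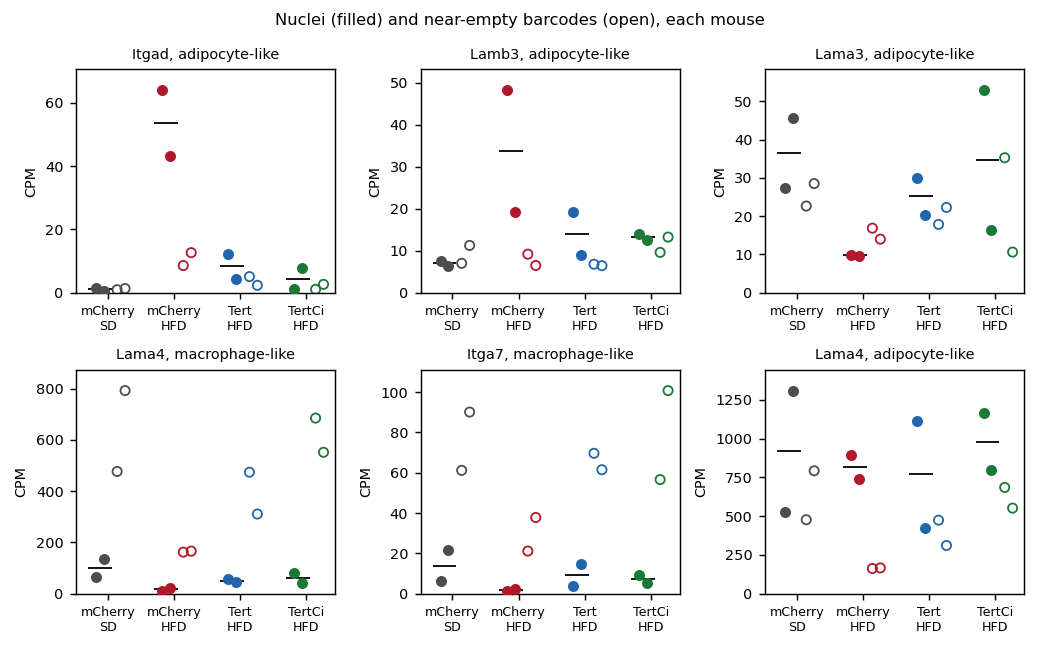
CPM of Itgad, Lamb3, Lama3 and Lama4 in adipocyte-like nuclei and of Lama4 and Itga7 in macrophage-like nuclei (filled points, 1 per mouse; bar, group mean), with near-empty barcodes of the same mice (open points). Itgad is above near-empty barcodes in mCherry HFD, whereas Lama4 and Itga7 in macrophage-like nuclei lie below them in every mouse.

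Mesothelial-like nuclei, from the lining of the abdominal cavity, had 28 members tested, of which 6 were called with diet (2 higher, 4 lower; background 14.1%, with 9.39% higher and 4.71% lower), none with Tert by edgeR (8 at an unadjusted p under 0.05, 0 by DESeq2; background 5.08%) and 8 with TertCi (4 higher, 4 lower; background 13.4%, with 5.35% higher and 8.01% lower). Lamc1 fell with diet from 391 and 362 CPM to 174 and 210.0 CPM, by 1.20 ± 0.22 on the log2 scale (edgeR, adjusted p = 0.00165), below near-empty barcodes in every mouse, and lost its call without mCherry HFD rep128. Itga11 (-1.52 ± 0.40), Itga2 (-1.48 ± 0.44) and Lamb1 (-0.85 ± 0.26) were the other members called lower, each above near-empty barcodes in 1 of the 2 mCherry SD mice. Itgb3, the partner of alpha-v, was at 22.7 and 21.8 CPM in mCherry HFD and 48.2 and 39.4 CPM in TertCi HFD, higher by 1.23 ± 0.29 (edgeR, adjusted p = 0.0112). Lama3 rose by 1.21 ± 0.29, Lama4 by 0.97 ± 0.25 and Lama5 by 2.09 ± 0.66 in the same contrast, each above near-empty barcodes in both TertCi HFD mice. The calls of Itgax and Itgb2 with diet and of Itgax, Itgb2, Itga5 and Itgav with TertCi had levels below those of near-empty barcodes in every mouse of the higher group. DESeq2 called 2 members with diet and 0 with TertCi in this class. Without mCherry HFD rep128 1 was called in each, without mCherry HFD rep129 3 and 0, without mCherry SD rep144 3 with diet, and without TertCi HFD rep138 4 with TertCi.

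Endothelial-like nuclei of mCherry SD rep144 were too few, so the fit dropped that mouse and the diet contrast rests on the 25 nuclei of mCherry SD rep146, a lone sample assumed to vary like the other groups. Of 18 members tested, 3 were called with diet, all higher (background 3.81%, with 1.95% higher), 6 with Tert (background 10.2%) and 7 with TertCi (background 18.2%). Itgax had no UMI in mCherry SD rep146 and was at 81.0 and 73.8 CPM in mCherry HFD, whose mean of 77.4 CPM was at least 3.37-fold higher than the 23.0 CPM that 3 UMIs over that mouse's class would give. Itgax, Itgav, Itgb5 and Itgb2 in mCherry HFD were at or under near-empty barcodes in at least 1 of the 2 mice. Lama5, an alpha chain of mature vessels, was at 29.1 and 21.5 CPM in mCherry HFD and at 56.4 and 78.2 CPM in Tert HFD, above near-empty barcodes. It rose by 1.26 ± 0.38 (edgeR, adjusted p = 0.0473), and this call was kept in 2 of 13 alternatives. Lama4, Lama2 and Lamc1 were called higher in 1 or both genotypes at levels below near-empty barcodes. DESeq2 called 1, 0 and 2 members in the 3 contrasts, and a minimum of 1000 UMIs per nucleus in every library gave 1, 0 and 1. Without mCherry HFD rep128 0, 0 and 1 members were called, without Tert HFD rep134 0 with Tert, and without TertCi HFD rep138 2 with TertCi. Itga6, Itgb1 and Itga1 were not called in this class. In mural-like nuclei 15 members were tested and edgeR called none with diet, Tert or TertCi, against 3, 1 and 1 at an unadjusted p under 0.05 and 0 by DESeq2. The background there was 4.03%, 1.22% and 4.17%. Itga8 was tested in mural-like and progenitor-like nuclei alone among the 6 classes, and in mural-like nuclei it lay between 54.5 and 172 CPM over 8 mice.

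**Figure D5:**
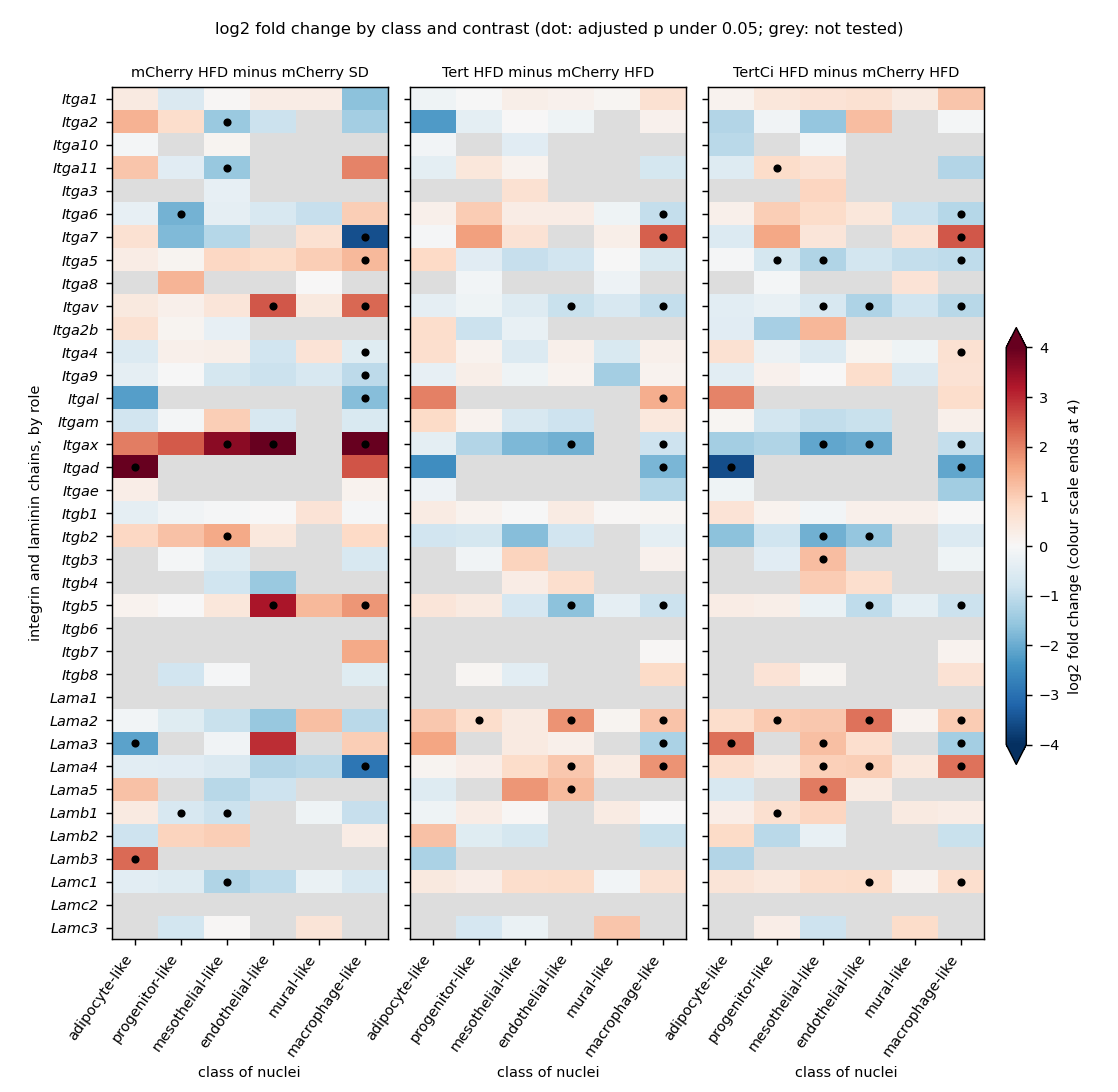
log2 fold change of each chain (rows, by role) in 6 classes (columns) for diet, Tert and TertCi; a dot marks adjusted p under 0.05 by edgeR, and grey marks chains that did not pass the filter on low counts. The macrophage-like column has 9, 10 and 12 dots among 26 chains tested, where 21.3%, 19.5% and 25.9% of all genes were called, and the mural-like column has none among 15, where 4.03%, 1.22% and 4.17% were called.

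Whether a contrast differed between 2 classes was tested for 3 pairs with the mouse as a term. With diet, Itgav rose more in macrophage-like than in progenitor-like nuclei by 2.12 ± 0.23 on the log2 scale, Itgb5 by 1.72 ± 0.31 and Itga5 by 1.28 ± 0.35 (edgeR, adjusted p = 7.00e-05, 0.0033 and 0.0401). In that pair 6 of 28 members tested differed with diet (background 5.51%), 4 with Tert (background 2.6%) and 6 with TertCi (background 4.71%). Between adipocyte-like and macrophage-like nuclei 7 of 32 differed with diet (background 6.15%), 6 with Tert (background 2.55%) and 5 with TertCi (background 4.35%). Lama3 differed in all 3 contrasts there: its change with TertCi was greater in adipocyte-like nuclei by 3.94 ± 0.49 (edgeR, adjusted p = 1.35e-05), and its change with diet was lower by 3.42 ± 0.58 (adjusted p = 0.000256). Between adipocyte-like and progenitor-like nuclei 3 of 33 differed with diet (background 4.31%), 0 with Tert (5 at an unadjusted p under 0.05; background 1.45%) and 1 with TertCi (background 2.61%). Leaving out single mice gave 0 to 5 with diet (0 without mCherry HFD rep128, 5 without TertCi HFD rep138), 0 to 3 with Tert (3 without Tert HFD rep134) and 0 to 3 with TertCi (0 without mCherry HFD rep128 or TertCi HFD rep138). These counts include chains that passed the filter on low counts in 1 class of the pair alone: Lama3 with TertCi (macrophage-like and progenitor-like), Lama5 with diet (adipocyte-like and progenitor-like), and Lamb3 and Lama5 with diet (adipocyte-like and macrophage-like). Itgax and Itgad did not pass these tests. The counts for diet fell to 2 between macrophage-like and progenitor-like nuclei and to 3 between adipocyte-like and macrophage-like nuclei without mCherry SD rep146. Between macrophage-like and progenitor-like nuclei they fell to 0 with Tert without Tert HFD rep134 and to 0 with TertCi without TertCi HFD rep138.

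No member differed between Tert HFD and TertCi HFD at an adjusted p under 0.05 by edgeR in any class, subcluster or in all nuclei together, nor by DESeq2. At an unadjusted p under 0.05 there were 5 of 37 in all nuclei, 1 each in progenitor-like, macrophage-like and perivascular nuclei, 2 each in endothelial-like and mesothelial-like nuclei and 0 in adipocyte-like, mural-like and lipid-associated nuclei. Over all genes between 0 and 0.0119% were called. Without the filter on low counts, 1 member was called in all nuclei together.

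In all called nuclei summed per mouse, 17 of 37 members were called with diet (7 higher, 10 lower; background 40.7%, with 22.3% higher and 18.5% lower), 11 with Tert (background 21.8%) and 15 with TertCi (background 35.5%). Without mCherry HFD rep128 10 were called with diet and 2 with Tert, without mCherry SD rep146 11 with diet, and without mCherry HFD rep129 or Tert HFD rep136 5 with Tert. The shares of classes differ as given above, and in these sums fewer nuclei of a class and less RNA per nucleus cannot be told apart.

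Other genes of matrix adhesion came from 5 lists that were chosen with earlier results of these data known. Among 9 tested ligands of integrins in macrophage-like nuclei, 1 rose and 2 fell with diet, against 11.7% of all genes called higher and 9.62% lower (list median 0.06, all genes 0.11). Spp1, osteopontin, was the riser, at 0 CPM in both mCherry SD mice, 11.2 and 15.7 CPM in mCherry HFD, 2.06 and 0.69 CPM in Tert HFD and 0 CPM in TertCi HFD, below the 22.1 and 40.65 CPM of near-empty barcodes in mCherry HFD. Spp1 passed the filter on low counts through the mCherry HFD mice alone, where it is high, so its rise is a description. Vcam1 and Fn1, the fibronectin gene, which lay below near-empty barcodes in mCherry HFD, fell with diet by 1.73 ± 0.50 and 0.95 ± 0.22 on the log2 scale (edgeR, adjusted p = 0.0272 and 0.00898). In progenitor-like nuclei Tnc, tenascin C, rose with diet by 4.93 ± 1.03 and fell by 3.17 ± 0.62 with Tert and 2.37 ± 0.56 with TertCi (edgeR, adjusted p = 0.0125, 0.00977 and 0.0138), 1 of 10 tested ligands to rise with diet while Ltbp1 fell (all genes, 7.21% higher and 4.07% lower). It was at 61.7 and 12.4 CPM in mCherry HFD against 1.48 and 0.90 CPM in mCherry SD. In adipocyte-like nuclei Mfge8, a bridge between alpha-v integrins and dying cells, was at 86.3 and 24.0 CPM in mCherry HFD and at 3.61 and 5.93 CPM in mCherry SD. Near-empty barcodes held Mfge8 at 51.8 and 67.0 CPM in mCherry HFD.

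Of the tetraspanins that bind integrins, 2 of 6 tested rose with diet in macrophage-like nuclei (11.7% of all genes were called higher), Cd9 by 3.44 ± 0.37 and Cd63 by 2.25 ± 0.34 on the log2 scale (edgeR, adjusted p = 7.05e-05 and 0.000762). Cd9 was at 21.2 and 8.92 CPM in mCherry SD, at 154.7 and 153.7 CPM in mCherry HFD, at 50.9 and 71.5 CPM in Tert HFD and at 48.0 and 48.6 CPM in TertCi HFD. Both fell in both genotypes. Near-empty barcodes of mCherry HFD held Cd9 at 167.7 and 234.6 CPM, above the nuclei. In progenitor-like nuclei Cd63 rose with diet, 1 of 5 tested (all genes, 7.21% higher), and in adipocyte-like nuclei Cd63, Cd9 and Cd81 rose and Tspan4 fell, of 6 tested (all genes, 9.48% higher and 5.32% lower). The medians of this list with diet were 0.95, 0.91 and 1.18 in macrophage-like, progenitor-like and adipocyte-like nuclei. Near-empty barcodes of mCherry HFD held more Cd63 (187 and 296 CPM) than any of these nuclei.

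Basement membrane partners of the laminins were called with diet in 4 of 14 cases upward in adipocyte-like nuclei (Col4a1, Col4a2, Col18a1 and Sparc), where 9.48% of all genes were called higher, and in 4 of 14 upward and 1 downward (Col4a4) in progenitor-like nuclei, where 7.21% were called higher and 4.07% lower. Col4a1, a chain of type IV collagen, rose in adipocyte-like nuclei from 191.8 and 257 CPM to 515 and 553 CPM, by 0.96 ± 0.19 on the log2 scale (edgeR, adjusted p = 0.0123). In progenitor-like nuclei Col4a4 rose by 1.105 ± 0.21 with Tert and 1.41 ± 0.21 with TertCi, and Col18a1 fell by 0.96 ± 0.23 and 1.38 ± 0.23 (edgeR, adjusted p = 0.00906, 0.00165, 0.0208 and 0.00257). In macrophage-like nuclei Sparc rose with diet and Nid2, Col15a1 and Col4a6 fell, of 14 tested (all genes, 11.7% higher and 9.62% lower).

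A further list, of other laminin receptors and proteins joined to them, includes the genes of dystrophin and its sarcoglycan partners. In progenitor-like nuclei 1 of 8 rose with diet (Rpsa) and 3 fell (Utrn, Sgcd and Dmd), with a list median of -0.38, against 7.21% of all genes called higher and 4.07% lower. Dmd, dystrophin, fell there by 1.24 ± 0.18 on the log2 scale and rose by 0.61 ± 0.17 with Tert and 0.80 ± 0.17 with TertCi (edgeR, adjusted p = 0.00235, 0.0443 and 0.00829). Its levels were 285 and 415 CPM in mCherry SD, at 170.2 and 173 CPM in mCherry HFD, at 245 and 225 CPM in Tert HFD and at 295 and 224 CPM in TertCi HFD. In adipocyte-like nuclei Rpsa rose and Utrn, Sgcd and Sgce fell with diet, of 8 tested (all genes, 9.48% higher and 5.32% lower), and in macrophage-like nuclei Rpsa rose and Utrn, Sgcd, Sgce and Dmd fell, of 9 tested (all genes, 11.7% and 9.62%). Sgcd in macrophage-like nuclei, at 14.4 and 38.1 CPM in mCherry HFD against 194 and 315 CPM in mCherry SD, was below near-empty barcodes in every mouse.

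Genes of the integrin adhesome, the proteins on the cytoplasmic side of integrins, were called in macrophage-like nuclei as 4 higher and 6 lower of 24 with diet (list median -0.26, all genes 0.11; 11.7% of all genes higher and 9.62% lower), 5 higher and 3 lower with Tert (all genes, 7.72% and 11.7%), and 8 higher and 7 lower with TertCi (all genes, 10.6% and 15.2%). Actn1, an actin crosslinker, rose with diet by 2.78 ± 0.35 on the log2 scale, from 30.4 and 17.8 CPM to 187.5 and 145 CPM, and Tns1, a tensin, fell by 2.08 ± 0.15, from 865 and 780.0 CPM to 221 and 210.2 CPM (edgeR, adjusted p = 0.000216 and 5.25e-06). Tns1 rose with Tert by 1.64 ± 0.15 and with TertCi by 1.70 ± 0.15 (edgeR, adjusted p = 8.54e-05 and 3.63e-05). In mCherry HFD near-empty barcodes held Tns1 at 316 and 228 CPM, above the nuclei, and in the other groups they held 749.9 to 1742 CPM. Ptk2, focal adhesion kinase, fell with diet by 1.53 ± 0.16 (edgeR, adjusted p = 5.45e-05). In progenitor-like nuclei Tns1 and Rsu1 were called lower with diet, of 25 tested (all genes, 4.07% lower), and Tns1, Lims1 and Rsu1 higher with Tert and with TertCi (all genes, 2.85% and 6.34% higher). In adipocyte-like nuclei Tln2 and Tns3 rose and Rsu1 fell with diet, of 25 tested (all genes, 9.48% higher and 5.32% lower).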

How the data were processed

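The authors deposited unfiltered UMI counts per feature and barcode, whole numbers with no normalization. The file headers name Cell Ranger 7.1.0, while the submitters' processing notes name Cell Ranger 5.0.1, bcl2fastq 2.20.0 and build mm39; intron counting and strand are not given in the sources used here. Barcodes were kept from the larger of 500 UMIs and 0.1 of the 99th percentile of the top 5000, and barcodes under 300 genes or over 5% mitochondrial UMIs were dropped. The nuclei with the highest scrublet doublet scores were removed (0.8% per 1000 nuclei). Clustering (scanpy 1.11.5; 2000 variable genes without the 37 members, 30 components, 15 neighbours, Leiden resolution 1) gave 37 clusters, of which 16 were mixed and 1 was unnamed. A cluster needed 3 markers raised at least 2-fold. Rules for related lineages, for the unnamed cluster and for macrophage subclusters were set after marker scores were seen. Counts were summed per mouse and class (at least 10 nuclei) and tested with edgeR 4.0.16 (TMM, filterByExpr, quasi-likelihood, Benjamini-Hochberg), all groups in 1 fit; scripts were checked on simulated data. Alternatives were DESeq2 1.42.0, no filter, no TMM, 1000 UMIs in every library, other class rules and each mouse left out. Named were members called in a class, up to 6 chains per class by their ratio to the next class, and per list and class the 2 called genes with the largest change; other list genes and uncalled members were named after their values were seen. The labels' protocols say that samples were processed in batches of 2 mice but not which, so no batch could be fitted. The members and lists were chosen with earlier results of these data known. Depth ran from 23378488 to 139749876 UMIs per library.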

Additional observations from a re-analysis of the deposited data

Results flagged for a closer look

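In 38 cases the change of a chain differed between 2 classes of nuclei of the same mice, tested on the difference itself with edgeR's quasi-likelihood test and Benjamini-Hochberg adjustment over all genes. Values are log2 fold change in the first class minus that in the second. Chains below near-empty barcodes in 1 of the classes, such as Lama4, Itga7 and Itga6 in macrophage-like nuclei, are included, and the part of free RNA in them was not tested.

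Between macrophage-like and progenitor-like nuclei, the diet change was greater in macrophage-like nuclei for Itga6 by 2.85, for Itgav by 2.12, for Itgb5 by 1.72 and for Itga5 by 1.28, and it differed by -2.46 for Lama4 and -1.02 for Itga9. The Tert change differed by 1.59 for Lama4, -2.16 for Itga6, -1.28 for Itgb5 and -0.79 for Itgav. The TertCi change differed by 1.76 for Lama4, -2.39 for Lama3, -2.14 for Itga6, -1.85 for Itga11, -1.10 for Itgb5 and -0.81 for Itgav. Lama3 did not pass the filter on low counts in progenitor-like nuclei alone and entered this test through the macrophage-like nuclei, so its value is a description.

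Between adipocyte-like and progenitor-like nuclei, the diet change differed by 3.57 for Lama5, 1.59 for Itga6 and -2.05 for Lamb2, and the TertCi change of Lamb2 by 2.14. Lama5 did not pass the filter in progenitor-like nuclei alone, and its diet change in adipocyte-like nuclei was not called (edgeR, adjusted p = 0.303).

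Between adipocyte-like and macrophage-like nuclei, the diet change differed by 4.30 for Lamb3, 4.04 for Lama5, 3.86 for Itga7, 2.32 for Lama4, -1.65 for Itgb5, -2.03 for Itgav and -3.42 for Lama3. Lamb3 and Lama5 did not pass the filter in macrophage-like nuclei alone and entered through the adipocyte-like nuclei. The Lama5 difference turned to -0.93 without mCherry SD rep146. The Tert change differed by 3.10 for Lama3, 1.49 for Itga5, 1.46 for Itgb5, 1.33 for Itga6, -1.63 for Lama4 and -1.98 for Itga7. The TertCi change differed by 3.94 for Lama3, 1.42 for Itga6, 1.28 for Itgb5, -1.34 for Lama4 and -2.79 for Itga7.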

How the results depend on the processing

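Of 2074 alternative values for 183 named results, 1563 kept their call, 507 lost it and 4 reversed. Only 41 of the 183 results were kept in all of their alternatives. In macrophage-like, mesothelial-like and mural-like nuclei the best-scoring class held the same nuclei as the main test. That alternative could not differ there and is among the values kept. The reversed values were 0.0537 for Itga4 in macrophage-like nuclei with diet (each nucleus classed on its own), 0.003 for Itgb5 in endothelial-like nuclei with TertCi (1000 UMIs in every library), -0.76 for Lama2 in lipid-associated nuclei with TertCi (without the lipid-associated subcluster whose leading genes include Rn18s-rs5, an alternative chosen after seeing the data) and -0.93 for the diet difference of Lama5 between adipocyte-like and macrophage-like nuclei (without mCherry SD rep146; 4.708 without mCherry HFD rep129 was the highest value on leaving out a mouse). The cause was not tested for these or for the counts that follow, which are members called, given for diet, Tert and TertCi where named. At 1000 UMIs in every library adipocyte-like nuclei had 6 and 4 (diet, TertCi), progenitor-like nuclei 4 and 7 (diet, TertCi), and there were 16 (diet) in macrophage-like, 1, 0 and 1 in endothelial-like, 1 and 0 (diet, TertCi) in mesothelial-like and 2 (diet) in mural-like nuclei. DESeq2 gave 1 (Tert) in adipocyte-like, 6 (Tert) in macrophage-like, 1, 0 and 2 in endothelial-like, 2 and 0 (diet, TertCi) in mesothelial-like, 1 and 2 (Tert, TertCi) in lipid-associated and 2 and 5 (Tert, TertCi) in perivascular nuclei. With the best-scoring class and no mixed clusters, adipocyte-like nuclei had 9, 3 and 7, progenitor-like nuclei 6, 5 and 10, and there were 6 (diet) in endothelial-like nuclei. With each nucleus classed on its own, adipocyte-like nuclei had 7 and 5 (diet, TertCi), progenitor-like nuclei 6, 8 and 11, and there were 9 (diet) in endothelial-like, 3 (TertCi) in mesothelial-like and 3 and 2 (diet, TertCi) in mural-like nuclei, and the levels of Lamc1 and Lamb1 in progenitor-like and Itga6 in endothelial-like nuclei moved to 797.8, 114.4 and 201.2 CPM. Without the filter on low counts, 1 was called between Tert HFD and TertCi HFD in all nuclei, adipocyte-like nuclei had 5 and 4 (diet, Tert), progenitor-like nuclei 6, 3 and 10, and there were 4 (Tert) in mesothelial-like and 1 (diet) in mural-like nuclei. With total counts in place of TMM, adipocyte-like nuclei had 1 (TertCi) and progenitor-like nuclei 1 and 0 (diet, Tert). Without the Rn18s-rs5 subcluster, lipid-associated nuclei had 2 and 8 (Tert, TertCi).

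Leaving out single mice gave 10 to 16 (diet) and 2 to 11 (Tert) in all nuclei; 0 to 4, 0 to 1 and 0 to 2 in adipocyte-like; 0 to 4, 0 to 2 and 1 to 8 in progenitor-like; 4 to 13, 1 to 9 and 1 to 14 in macrophage-like; 0 to 4, 0 to 7 and 1 to 9 in endothelial-like; 1 to 10, 0 to 3 and 0 to 11 in mesothelial-like and 0 to 2 (diet) in mural-like nuclei. The ranges were 0 to 1, 1 to 6 and 0 to 8 in lipid-associated and 1 to 5, 1 to 6 and 3 to 9 in perivascular nuclei. For class differences they were 2 to 8, 0 to 8 and 0 to 7 between macrophage-like and progenitor-like, 0 to 5, 0 to 3 and 0 to 3 between adipocyte-like and progenitor-like, and 3 to 10, 4 to 7 and 3 to 7 between adipocyte-like and macrophage-like nuclei. No paired analysis was possible because no replicate number is shared between groups. Each group had 2 mice, with 30 adipocyte-like nuclei in 1 mCherry HFD mouse and 25 endothelial-like nuclei for mCherry SD. Small differences may thus have been missed, and the smallest difference that could be detected was not tested.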

Other observations

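Itgad UMIs also appeared in nuclei of mixed clusters, which enter no comparison within the named classes of the main test. Such nuclei do enter the sums over all called nuclei, where Itgad was called higher with diet, and the other class rules. They held 282 UMIs in 106 of 2071 mCherry HFD nuclei, with up to 38 in 1 nucleus, 60 in 32 of 1484 Tert HFD nuclei, 32 in 12 of 1802 TertCi HFD nuclei and 15 in 13 of 2895 mCherry SD nuclei. The gene 4931431B13Rik, on the other strand within Itgad, had 229 UMIs in the mCherry HFD mixed nuclei, and 37 of these nuclei held both. In macrophage-like nuclei of mCherry HFD, 212 Itgad UMIs lay in 165 of 5090 nuclei, with at most 6 in 1 nucleus.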
